A study of Rattus norvegicus with 172 samples.

Results

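The genes described here are 16 of the 14218 genes measured, raised in the gap of transected rat spinal cord while the cord on either side, averaged over the days, stayed near the level of uninjured cord. Where a gene had several probe sets, the one brightest on average across cord samples stood for it. The 16 had a lesion control level in the gap at least 2 log2 units above the normal cord mean on each of days 3, 10, 20, 30, 60 and 90. Their lesion control means in the rostral and the caudal stump, averaged over the same days, were less than 0.7 log2 above normal. The gap condition alone was met by 336 genes, and 320 of these exceeded the stump limit. The genes were thus chosen by the measured values of the lesion control and normal arrays, which are given below as a description, without a test.

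The study followed adult female Wistar rats, 2 months old, after a 5 mm piece of cord was cut out at thoracic level T7-8 and remaining fibres were scraped and aspirated from the canal floor. The NT-3 tube animals received a chitosan tube loaded with chitosan carriers of the growth factor neurotrophin-3, the tube alone animals an empty chitosan tube, and the lesion control animals no implant. Segments 5 mm long, with dura and meninges, were taken from the lesioned area (the gap) and from the cord rostral and caudal to it. RNA pooled from 4 animals was hybridised to each Affymetrix rat array of the operated groups, so each of those values is that of a pool and p-values measure the spread between pools. For days 3 to 90 the gap was represented by 18 lesion control arrays, 18 NT-3 tube arrays and 3 tube alone arrays, the last all from day 3. Each stump had 3 arrays per arm and day, except tube alone rostral on day 10 with 2. Uninjured T7-8 cord was on 3 arrays, and 5 arrays held a purchased reference RNA pooled from rat cell lines. Levels are log2 values after robust multi-array averaging (RMA), in which 1 unit is a 2-fold difference, and each difference below is on that scale. In tissue of this kind a lower share of a cell type and less RNA per cell cannot be told apart.

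Skeletal muscle fibres contract through repeating sarcomeres, in which myosin heavy and light chains pull on actin filaments gated by troponin, titin spans the unit as a spring, and Z-disc proteins anchor it. The spinal cord holds no skeletal muscle fibres, but muscle lies along the vertebral column that encloses it. Of the 16 genes, 13 are in a list of skeletal muscle genes: Myl1, Myl11, Myh2, Acta1, Tnnt3, Tnni2, Ttn, Myot, Klhl41, Ankrd1, Car3, Mb and Ckm. The others are H19, an imprinted long non-coding RNA abundant in embryonic and regenerating tissue, Ibsp, which encodes the bone sialoprotein of mineralised matrix, and Tgfb3, which encodes a transforming growth factor beta ligand. The label of genes raised in the gap only held for the lesion control stumps as a mean over the 6 days, and not on every day. Among the lesion control day means, Myl1 was 2.15 and Myl11 1.91 above normal rostrally on day 20. H19 was 2.00 above normal rostrally on day 10 and 1.79 caudally on day 3. Tgfb3 was 1.38 and Car3 1.27 above normal caudally on day 3, and Ibsp 1.33 caudally on day 30. In the tube alone arm the same genes were also high in several stump arrays, as given below.

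Among the genes chosen by the rule, the fast myosin genes Myl1, Myl11 and Myh2 stood highest above normal cord in the gap of the lesion control. Myl1, the fast alkali myosin light chain, had a mean difference of 5.91 over the 6 days, or 60.2-fold. Its 3 normal cord arrays read 5.42, 5.82 and 6.29. Its 18 lesion control gap arrays ran from 7.93 to 13.40 with a median of 11.95, so every one of them lay above every normal array. Myl11, the fast regulatory light chain, averaged 5.41 above normal, with gap arrays from 7.39 to 13.36 against normal arrays from 5.67 to 6.12. Myh2, a fast myosin heavy chain, averaged 4.86 above normal. Its gap arrays ran from 4.30 to 11.85 and its normal arrays from 4.31 to 4.45, so 1 of the 18 gap arrays, that of day 3 replicate 1, was no higher than normal. Acta1, skeletal muscle alpha-actin, averaged 3.80 above normal, with gap arrays from 8.00 to 13.07 and normal arrays from 6.93 to 7.48. In the lesion control stumps Acta1 lay below normal cord, by a difference of -0.76 rostrally and -0.91 caudally.

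The troponin, sarcomere and metabolic genes followed. Tnnt3 and Tnni2, the fast troponin T and troponin I, averaged 4.17 and 3.39 above normal. Tnnt3 gap arrays ran from 6.71 to 11.56 against normal arrays from 5.08 to 5.32. Ttn, which encodes titin, averaged 3.20 above normal and Myot, which encodes the Z-disc protein myotilin, 3.03. Klhl41, which encodes a Kelch protein of the sarcomere, averaged 4.18 above normal, with gap arrays from 5.60 to 11.24 and normal arrays from 4.33 to 4.61. Ankrd1, a stress-induced ankyrin repeat protein that binds titin, had the smallest mean, 2.54. Car3, the carbonic anhydrase of slow muscle and fat, averaged 4.58 above normal, and its gap arrays of 10.10 to 12.80 were the most even of the muscle genes. Mb, which encodes myoglobin, averaged 4.39 above normal, with gap arrays from 5.65 to 11.77 and normal arrays from 4.89 to 5.23. Ckm, muscle creatine kinase, averaged 3.40 above normal.

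**Figure D1:**
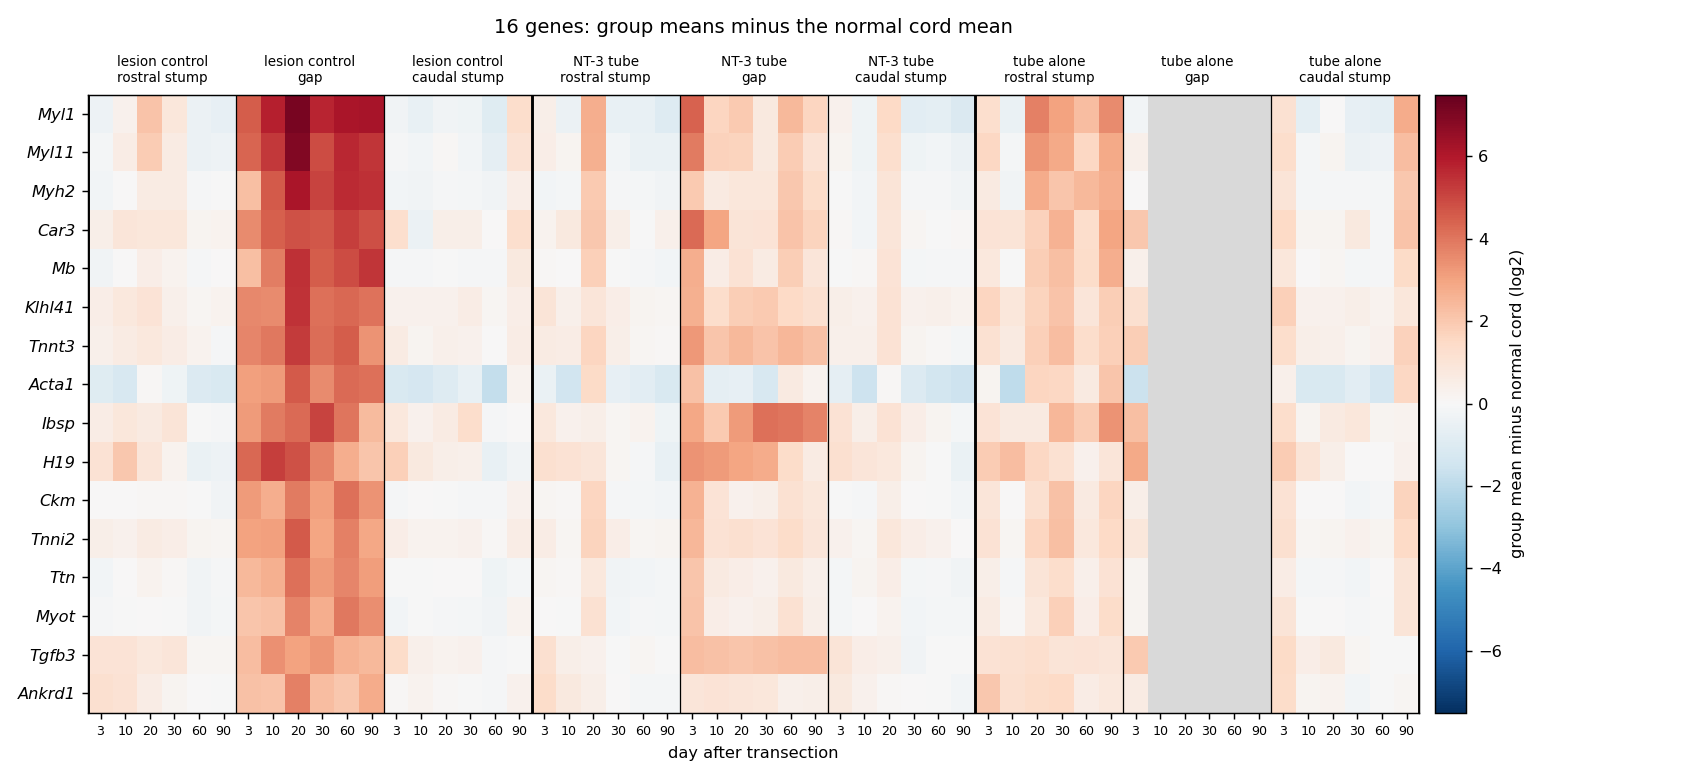
Mean of each group minus the normal cord mean (log2, colour) for the 16 genes (rows) by arm, segment and day (columns); grey marks days with no tube alone gap arrays. The lesion control gap columns are red in every row, which the choice of genes fixes, and the tube alone rostral columns of days 20 to 90 are red for Myl1, Myl11 and Myh2.

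The muscle genes were not even over time. In the lesion control gap the day means were highest on day 20 for 10 of the 13 and on day 60 for Car3, Ckm and Myot. Myl1 read 7.93, 13.16 and 10.08 on day 3, 11.73, 11.46 and 11.77 on day 10, and 12.34, 13.40 and 13.06 on day 20. It read 11.95, 10.61 and 12.19 on day 30, 12.79, 9.93 and 13.12 on day 60, and 12.22, 11.91 and 11.94 on day 90. The 3 pools lay closest together on days 10 and 90 and furthest apart on day 3.

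The median over the 13 muscle genes, each minus its normal mean, gives 1 value per array. On day 3 it was 0.87, 5.64 and 2.39 in the 3 lesion control gap arrays. On the later days it lay between 2.14 and 5.93, and 17 of the 18 gap arrays were at 2 or more. Day 3 replicate 2 carried much of the day 3 mean: without that array the rule found 7 genes, and Acta1, Ankrd1, Ckm, Klhl41, Mb, Myh2, Myot, Tnni2 and Ttn fell short of it. Ibsp, H19, Tgfb3, Myl1, Myl11, Car3 and Tnnt3 met the rule without it.

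**Figure D2:**
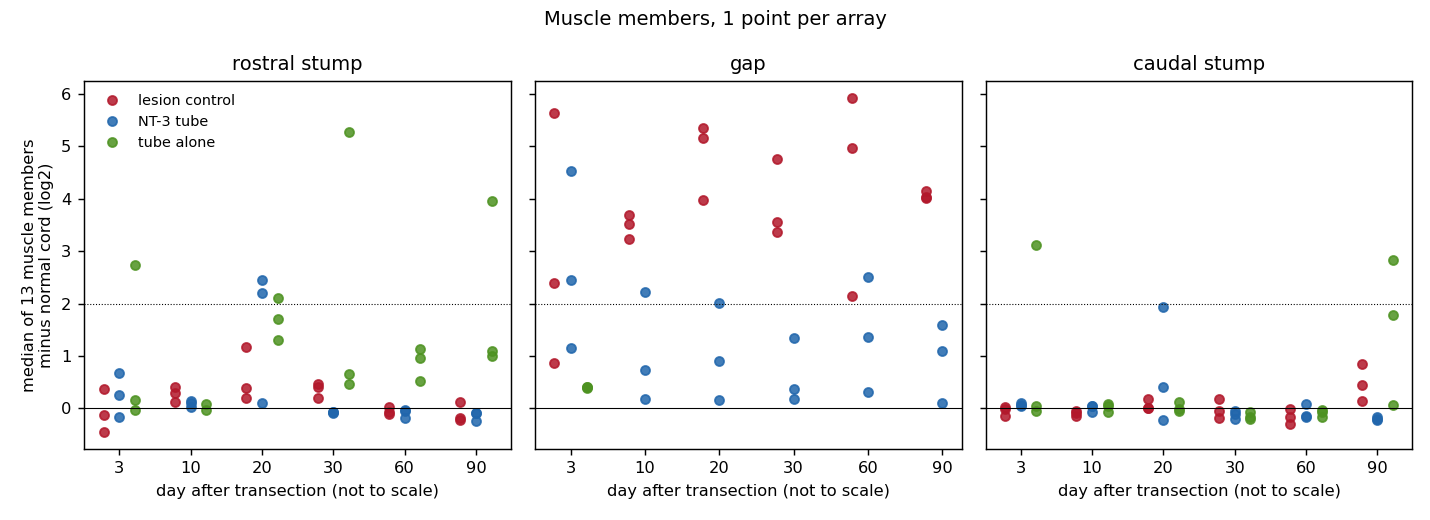
Median over the 13 muscle genes of the log2 level minus normal cord, 1 point per array, by segment and day (days not to scale); the dotted line marks 2. Lesion control gap arrays lie between 0.87 and 5.93, NT-3 tube gap arrays between 0.11 and 4.53, the 3 tube alone gap arrays between 0.39 and 0.42, and single tube alone stump arrays reach 5.28.

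Promoters of the 16 genes were searched for sites of factors known to drive sarcomere genes, since the muscle members among them moved together. RefSeq windows on build GRCr8, from 250 bases before to 50 after the start site, were held for 11 of the 16 genes, Myl1 with 2 start sites. The 11 include Ibsp and Tgfb3, which are not in the muscle list. A MEF2 site, the binding sequence of the myocyte enhancer factors, was in the windows of Klhl41, Ttn and Myl1, 3 of the 11 genes, and in 0.565% of all 33469 promoter windows. A CArG box, the site of serum response factor, was in that of Acta1, 1 of the 11, and in 1.64% of all windows. The windows that hold a match are shown in the direction of transcription with the match in capitals. They are the MEF2 sites of Klhl41 (chr3:74841868-74842167, plus strand), of Ttn (chr3:82332061-82332360, minus strand) and of the second Myl1 start (chr9:75897750-75898049, minus strand), and the CArG box of Acta1 (chr19:68784145-68784444, minus strand).
Klhl41: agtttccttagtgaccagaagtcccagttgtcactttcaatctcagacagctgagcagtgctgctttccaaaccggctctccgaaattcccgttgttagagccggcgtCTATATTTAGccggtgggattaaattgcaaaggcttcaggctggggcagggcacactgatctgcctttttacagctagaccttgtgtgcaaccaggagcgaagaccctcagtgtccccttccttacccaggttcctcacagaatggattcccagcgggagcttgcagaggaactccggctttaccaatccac
Ttn: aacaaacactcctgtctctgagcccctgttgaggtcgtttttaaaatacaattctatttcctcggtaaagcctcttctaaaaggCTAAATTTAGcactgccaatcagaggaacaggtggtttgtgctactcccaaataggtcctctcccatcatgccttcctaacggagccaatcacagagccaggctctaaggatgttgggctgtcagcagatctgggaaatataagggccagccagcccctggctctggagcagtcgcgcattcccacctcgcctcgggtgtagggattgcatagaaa
Myl1: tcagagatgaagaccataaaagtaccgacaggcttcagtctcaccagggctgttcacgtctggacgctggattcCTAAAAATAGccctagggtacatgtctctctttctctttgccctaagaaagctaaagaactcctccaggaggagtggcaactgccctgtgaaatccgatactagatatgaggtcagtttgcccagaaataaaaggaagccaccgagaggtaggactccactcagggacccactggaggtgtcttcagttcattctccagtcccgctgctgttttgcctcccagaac
Acta1: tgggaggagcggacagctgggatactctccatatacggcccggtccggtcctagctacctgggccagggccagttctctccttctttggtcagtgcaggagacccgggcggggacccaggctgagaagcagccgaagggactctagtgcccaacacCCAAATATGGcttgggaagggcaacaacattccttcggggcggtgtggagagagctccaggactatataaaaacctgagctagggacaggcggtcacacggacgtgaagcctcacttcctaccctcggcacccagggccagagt
Counted from the start site, the first base of the match lies at -142 in Klhl41, -166 in Ttn, -176 in Myl1 and -94 in Acta1. The TATA box letters TATAAA were in the windows of 6 of the 11 genes and in 14.2% of all windows. The E-box letters CANNTG, bound by the MyoD family among other factors, were in those of 10 of the 11 and in 72.1% of all windows. Both strands were searched for each motif, and no capitalised match overlapped a TATA or E-box match. A match is a description of these letters and shows no binding.

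The gap of NT-3 tube animals held the same transcripts at lower mean levels. The lesion control arrays used for this side-by-side view are those that chose the genes, so no test is given. The muscle median lay between 0.11 and 4.53 with a median of 1.12 over the 18 NT-3 tube gap arrays, and 5 of the 18 were at 2 or more, against 17 of 18 in the lesion control. On day 3 the NT-3 tube arrays read 1.15, 2.45 and 4.53, within the lesion control range of that day. Myl1 in the NT-3 tube gap ran from 5.17 to 12.47 with a median of 8.38, a mean 2.12 above normal against 5.91 in the lesion control. Acta1 had a mean 0.11 above normal against 3.80, Myl11 1.84 against 5.41, and Myh2 1.31 against 4.86. Mb averaged 1.28 against 4.39, Klhl41 1.75 against 4.18, Car3 2.18 against 4.58 and Tnnt3 2.44 against 4.17. The mean difference between the arms was widest for Myl1, 3.79 or 13.8-fold, and narrowest among the muscle genes for Tnnt3, 1.73 or 3.33-fold. The same difference was 1.42 for H19, 0.62 for Tgfb3 and 0.48 for Ibsp, so each of them differed less between the arms than any muscle gene.

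Whether the genes also stood above the stumps in arrays that had no part in choosing them was tested in the NT-3 tube arm, with 18 gap arrays against 36 stump arrays of days 3 to 90. All 16 genes were higher in the gap (limma, Benjamini-Hochberg adjusted p under 0.05 over 14218 genes). The gap differed widely from the stumps, with 48.8% of all genes called higher and 34.1% lower, and the count of 16 is read against that background. The median difference of the 16 was 1.22, beside 0.08 over all genes. Other lists had larger medians: 46 of 49 fibroblast and fibrillar matrix genes were higher with a median of 2.21, 24 of 25 proteases with 1.58 and 28 of 34 chemokine genes with 1.35. Oligodendrocyte genes were lower in 13 of 13 with a median of -2.40 and neuron genes in 17 of 18 with -3.10, and the part of these lists in the result was not tested. The largest difference of the 16 was that of Ibsp, with a gap mean of 7.28 and a stump mean of 4.36, a difference of 2.92 ± 0.16 (SE) or 7.58-fold (adjusted p = 7.29e-20). Myl1 was higher by 2.16 ± 0.41 (adjusted p = 9.35e-06), Tnnt3 by 1.99 ± 0.15, H19 by 1.93 ± 0.10 and Tgfb3 by 1.93 ± 0.06. Tgfb3 had the smallest SE of the 16, and its NT-3 tube gap arrays lay between 9.64 and 10.44. Car3 was higher by 1.78 ± 0.20 and Myl11 by 1.64 ± 0.33. Acta1, at 0.87 ± 0.34 (adjusted p = 0.0167), was not called when day 3 was left out (0.48 ± 0.38) or against the rostral stump alone (0.62 ± 0.45), while the other 15 genes were called in both. At a 2-fold minimum 10 of the 16 were called, and Ckm, Tnni2, Acta1, Myot, Ttn and Ankrd1 fell under it.

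**Figure D3:**
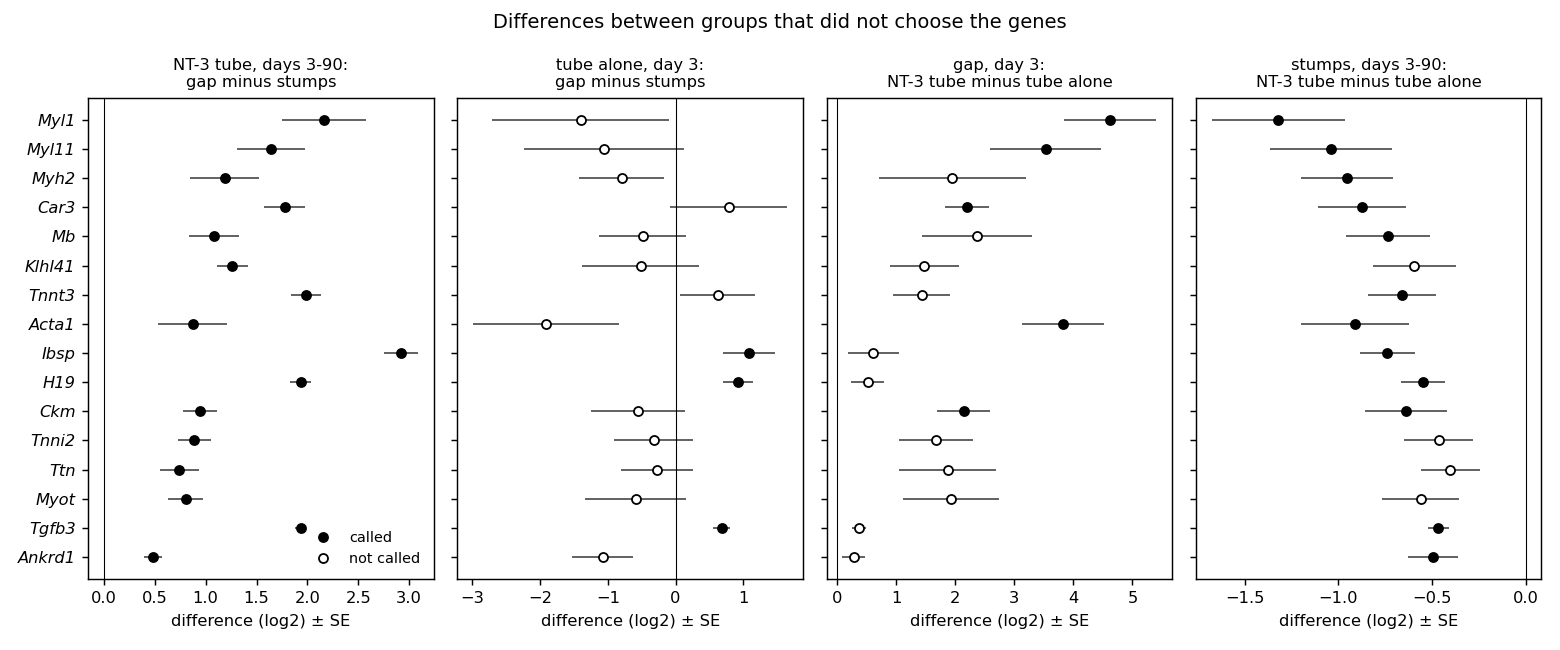
Difference in log2 level ± SE for each of the 16 genes in 4 comparisons made on NT-3 tube and tube alone arrays only; filled points are called at an adjusted p under 0.05. All 16 are called and above 0 in the NT-3 tube gap against its stumps, while Ibsp, H19 and Tgfb3 are the genes called in the tube alone gap on day 3.

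Ibsp was 3.80 above normal on average in the lesion control gap. Its normal cord arrays read 3.71, 4.04 and 4.15. In the lesion control gap it read 5.72, 7.80 and 7.90 on day 3, 7.67, 8.08 and 7.91 on day 10, and 7.99, 8.60 and 8.04 on day 20. The values of day 30, 10.03, 8.55 and 8.49, gave the highest day mean, 5.06 above normal. They were 6.81, 9.67 and 7.43 on day 60 and 6.48, 6.42 and 6.16 on day 90, so the day 90 arrays lay below every array of days 10 to 60. With the NT-3 tube Ibsp read 8.05, 5.98 and 6.55 on day 3 and 6.45, 5.89 and 5.45 on day 10. Its arrays of days 20 to 90 lay between 6.17 and 9.39, and those of day 90, at 7.34, 8.41 and 7.32, lay above the lesion control arrays of that day.

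H19 was 3.80 above normal on average in the lesion control gap, with the highest day mean on day 10 and the lowest on day 90. Its normal cord arrays read 7.24, 7.31 and 7.33. It read 10.65, 12.44 and 11.72 on day 3, 12.17, 12.64 and 12.55 on day 10, and 11.43, 12.50 and 12.27 on day 20. It then read 10.91, 10.59 and 11.52 on day 30, 10.67, 8.96 and 10.46 on day 60, and 9.69, 9.16 and 9.27 on day 90. Its lesion control stump arrays read 9.29, 9.94 and 8.66 rostrally on day 10 and 9.25, 9.23 and 8.76 caudally on day 3, all above normal. On day 90 the stump arrays of that arm lay between 6.75 and 7.26, below the normal mean of 7.29. With the NT-3 tube H19 went from 9.86, 10.83 and 11.21 on day 3 to 7.62, 8.10 and 8.04 on day 90, still above all 3 normal arrays. The 3 tube alone gap arrays of day 3 read 10.12, 10.08 and 10.15, inside the NT-3 tube range of that day and below the lesion control range.

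H19 is a neighbour of Igf2, an imprinted growth factor gene, in the RefSeq gene order of build GRCr8, and the 2 troponin genes Tnnt3 and Tnni2 lie in the same stretch of chromosome 1. Between Tnnt3 and H19 lie 2 genes, one of them Mrpl23, and between Tnni2 and Tnnt3 lie 6. The other one between Tnnt3 and H19, LOC102548505, overlaps H19, and whether the H19 probe set also reads its RNA was not tested. Igf2 is no member. From day 3 to day 10 both genes had higher means in the lesion control gap, and after day 10 Igf2 stayed between 12.84 and 13.44 there, while the H19 mean of each later day was below that of day 10. On day 3 Igf2 read 8.73, 8.62 and 8.56 in the lesion control and 9.78, 8.90 and 9.02 in the NT-3 tube gap, below its normal cord arrays of 10.32 to 10.35. On day 90 it read 13.06, 13.42 and 13.26 in the lesion control and 13.73, 13.89 and 13.59 in the NT-3 tube gap, when H19 was lowest. The NT-3 tube change of Igf2 from day 3 to days 60 and 90 was 4.31 ± 0.20 (limma, adjusted p = 6.33e-11), against -2.34 ± 0.23 for H19.

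Tgfb3 was 2.86 above normal on average in the lesion control gap. Its normal cord arrays read 7.82, 7.91 and 8.07. In the lesion control gap it read 10.06, 10.31 and 10.46 on day 3, 11.21, 11.49 and 11.43 on day 10, and between 10.90 and 11 on day 20. The arrays of days 30, 60 and 90 lay between 10.26 and 11.27. With the NT-3 tube it stayed between 9.64 and 10.44 on all 6 days. On days 10, 20, 30 and 60 every NT-3 tube array was below every lesion control array, and on days 3 and 90 the ranges overlapped. The other ligands of the family, Tgfb1 and Tgfb2, were 1.92 and 1.17 above normal in the lesion control gap. Both also stood above normal in the stumps, Tgfb1 by 1.21 rostrally.

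**Figure D4:**
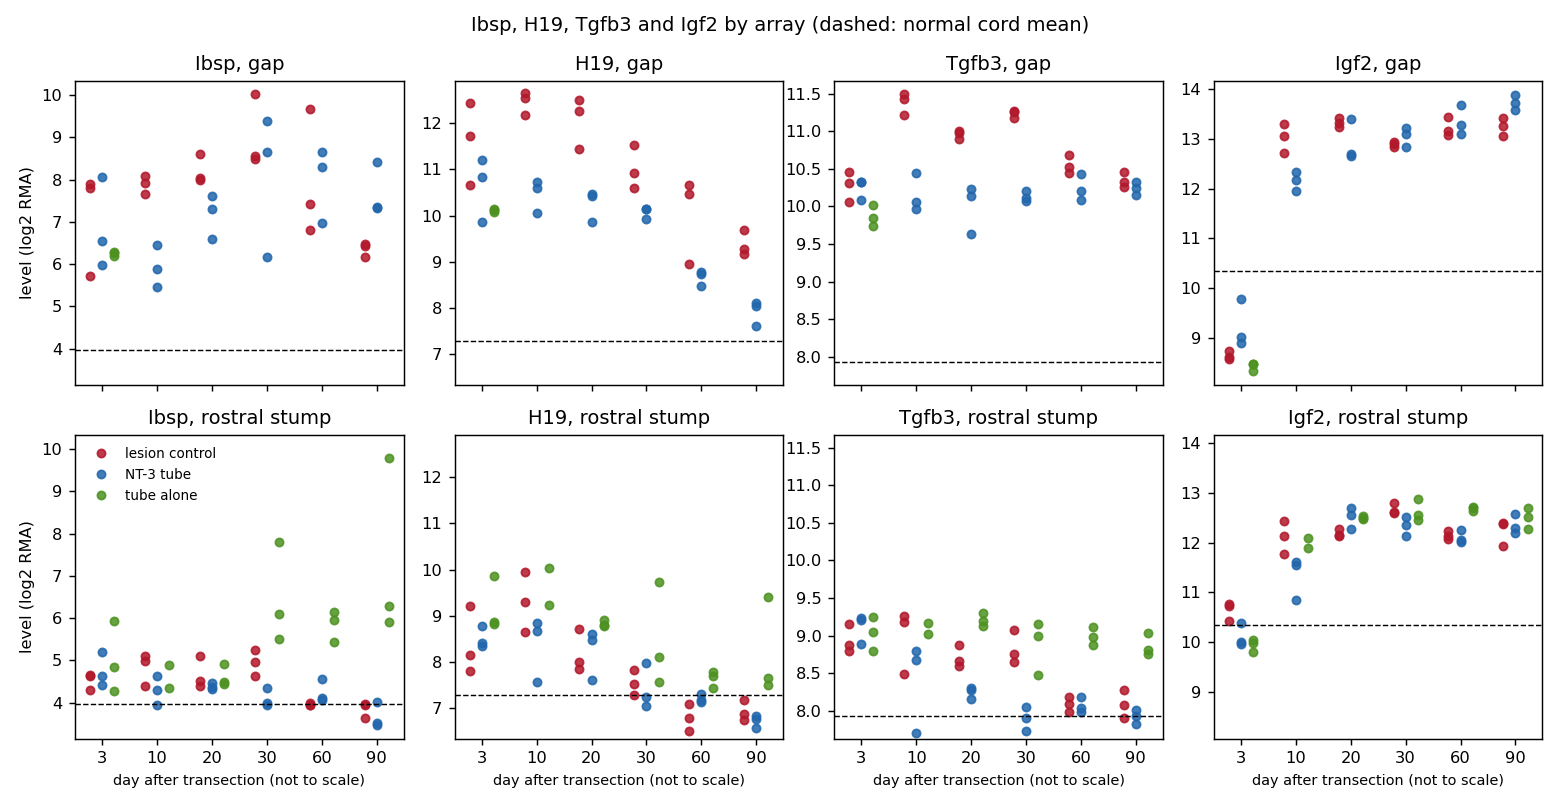
Level (log2 RMA) of Ibsp, H19, Tgfb3 and the neighbouring gene Igf2 in the gap (top) and the rostral stump (bottom), 1 point per array by day (days not to scale), with the normal cord mean dashed. In the gap H19 is lowest on day 90, while Igf2 starts below normal on day 3 and lies above 11.9 from day 10. Tube alone rostral arrays of Ibsp reach 9.79.

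The tube alone gap, sampled on day 3, was high for Ibsp, H19 and Tgfb3 and not for most of the muscle genes. Its 3 arrays lay unusually close together, with muscle medians of 0.39 to 0.42. Those of day 3 ran from 0.87 to 5.64 in the lesion control and from 1.15 to 4.53 with the NT-3 tube. The labels call the 3 arrays biological replicates, and whether they were separate pools was not tested. If they were not, the SEs and p-values that use them are too small. Ibsp read 6.18, 6.27 and 6.28 there, 2.28 above normal, H19 was 2.82 and Tgfb3 1.94 above normal. Myl1 read 5.59, 5.51 and 5.86, within its normal range, and Acta1 5.74, 5.79 and 5.40, below all 3 normal arrays. Car3, at 8.92, 8.99 and 8.85, was 2.05 above normal and Tnnt3 1.83. Against the tube alone stumps of day 3 (3 against 6 arrays), 3 of the 16 genes were called higher and none lower, with 30% of all genes called higher and 24.2% lower. These were Ibsp at 1.09 ± 0.38 (limma, adjusted p = 0.0314), H19 at 0.92 ± 0.22 and Tgfb3 at 0.68 ± 0.13. Of the 13 muscle genes 0 were called by limma, and 4 of the 16 genes had an unadjusted p under 0.05. The stump arrays of replicate 3 held muscle transcripts, with a muscle median of 2.73 rostrally and 3.13 caudally. Without replicate 3 in all segments, 10 genes were called higher, 8 of them muscle genes, beside 24.8% of all genes higher and 23.7% lower. The muscle genes were led by Car3 at 1.98 ± 0.11 and Tnnt3 at 1.23 ± 0.16. Acta1 was then called lower, at -0.34 ± 0.10. The same setting without replicate 2 gave 3 genes higher and Ankrd1 lower, beside 19.8% of all genes higher and 18.3% lower. Without replicate 1 it gave 2 higher, beside 20.2% of all genes.

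The gap of the 2 tube arms could be compared on day 3, with 3 arrays each, and the narrow spread of the tube alone arrays limits this test too. Of the 16 genes 5 were higher with the NT-3 tube than with the tube alone and 0 lower, where limma called 9% of all genes higher and 6.48% lower and 11 of the 16 had an unadjusted p under 0.05. The 5 were Myl1 at 4.63 ± 0.78 (adjusted p = 0.00857), Acta1 at 3.83 ± 0.70, Myl11 at 3.53 ± 0.94, Car3 at 2.19 ± 0.37 and Ckm at 2.14 ± 0.45. Myl1 read 8.61, 9.76 and 12.47 with the NT-3 tube, and none of these overlapped the tube alone values. Ibsp, H19 and Tgfb3 differed by 0.62 ± 0.43, 0.52 ± 0.29 and 0.38 ± 0.12, none of them called. The count rested on single arrays, ranging from 3 to 12 as each was left out, with 12 without NT-3 tube replicate 1, 10 without NT-3 tube replicate 3, and 3 without tube alone replicate 1 or 2. Of the 58 measured genes of the muscle list, 10 were higher and 0 lower in this comparison by limma. Other lists moved too: 10 of 17 meninges genes, 8 of 15 Schwann cell genes, 14 of 27 genes of TGF-beta, BMP and activin signalling and 15 of 49 fibroblast genes were higher, and 9 of 19 macrophage genes lower. RT1-CE10, a major histocompatibility class I gene that varied between pools, read 7.84, 9.26 and 10.06 with the NT-3 tube and 7.95, 7.98 and 7.39 with the tube alone. The part of these lists and of RT1-CE10 in the result was not tested.

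Part of the muscle genes of the NT-3 tube gap were lower after day 3, in 2 comparisons that share the 3 day 3 arrays. Between days 10 to 30 and day 3 (9 against 3 arrays), 8 of the 16 genes were lower, all of them muscle genes, and 0 were higher, where limma called 20.3% of all genes lower and 13.5% higher and 10 of the 16 had an unadjusted p under 0.05. Acta1 changed by -3.03 ± 1.07 (adjusted p = 0.039), Car3 by -2.59 ± 0.41 (adjusted p = 0.00016), Ckm by -2.03 ± 0.49, Mb by -1.98 ± 0.74 and Myot by -1.71 ± 0.57. Myl1 changed by -3.01 ± 1.21, which was not called. Between days 60 to 90 and day 3 (6 against 3 arrays), 5 were lower and 0 higher, where limma called 25% of all genes lower and 19.4% higher and 10 of the 16 had an unadjusted p under 0.05. H19 changed by -2.34 ± 0.23 (adjusted p = 5.97e-07), Car3 by -2.31 ± 0.44, Ckm by -1.59 ± 0.52, Tnni2 by -1.37 ± 0.52 and Klhl41 by -1.29 ± 0.49. Tgfb3 differed by -0.01 ± 0.13 and Ibsp by 0.97 ± 0.59 over the same span, neither called. NT-3 tube day 3 replicate 3, whose muscle median was 4.53, weighed on both counts: without it 1 gene was called for days 10 to 30 and 2 for days 60 to 90. Without NT-3 tube day 3 replicate 1 the counts were 11 and 11. The count for days 10 to 30 was 3 without day 10 replicate 2 or 3, day 20 replicate 2 or day 30 replicate 2, and 4 without day 20 replicate 5 or day 30 replicate 3. It was 5 without day 3 replicate 2, day 60 replicate 2 or day 90 replicate 3. The count for days 60 to 90 was 9 without day 60 replicate 1, and 3 without day 60 replicate 2 or 3 or day 90 replicate 1 or 3. RT1-CE10 in these arrays was 7.68 to 8.47 on day 10, 11.71 to 12.34 on day 30 and 11.03 to 11.75 on day 90. Cell cycle genes were lower in 23 of 23 in both comparisons, with medians of -1.41 for days 10 to 30 and -2.55 for days 60 to 90. Neuron genes were lower in 12 of 18 and then 7 of 18, and meninges genes higher in 12 of 17 and then 14 of 17. The part of RT1-CE10 and of these lists in the result was not tested.

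In the stumps the tube alone arm stood above the NT-3 tube arm. Over both stumps and days 3 to 90 (36 NT-3 tube against 35 tube alone arrays), 12 of the 16 genes were lower with the NT-3 tube and 0 higher, where limma called 8.29% of all genes lower and 10.4% higher and all 16 had an unadjusted p under 0.05. Of the 12, 9 were muscle genes. Myl1 was lower by a difference of -1.32 ± 0.36 (adjusted p = 0.00709), Myl11 by -1.04 ± 0.33, Myh2 by -0.95 ± 0.25, Acta1 by -0.91 ± 0.29 and Car3 by -0.87 ± 0.23. Ibsp differed by -0.74 ± 0.14, H19 by -0.55 ± 0.12 and Tgfb3 by -0.47 ± 0.06 (adjusted p = 2.83e-08). In the rostral stump alone 12 genes were lower, with 9.68% of all genes lower. In the caudal stump alone limma called 0 of the 16 and 0 of all 14218 genes, so that count is not particular to the 16. Of the 16, 3 had an unadjusted p under 0.05 there. Other lists moved with this comparison. Of 49 fibroblast and fibrillar matrix genes 37 were lower with the NT-3 tube and 2 higher, of 27 genes of TGF-beta, BMP and activin signalling 16 were lower, and of 18 neuron genes 11 were higher. RT1-CE10 was high on different days in the 2 arms, at 10.17 to 11.42 in NT-3 tube stumps on day 90 and 7.16 to 7.55 on day 60, against 7.21 to 7.76 and 9.82 to 10.79 in tube alone stumps. The part of these lists and of RT1-CE10 in the result was not tested.

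The rostral stump of tube alone animals held muscle transcripts in some pools and not in others. The muscle median was at 2 or more in 5 of its 20 arrays, which include day 1: 3.04 in day 1 replicate 1, 2.73 in day 3 replicate 3, 2.10 in day 20 replicate 1, 5.28 in day 30 replicate 3 and 3.97 in day 90 replicate 1. Caudally it was at 2 or more in 3 of 21 tube alone arrays, with a highest value of 3.51. In the NT-3 tube arm 2 of 21 rostral arrays, both of day 20 with 2.20 and 2.46, and 0 of 21 caudal arrays reached 2, and in the lesion control 0 of 21 rostral and 0 of 21 caudal arrays did.

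Within tube alone animals 7 of the 16 genes were higher rostrally than caudally over days 3 to 90, where 8.76% of all genes were called higher. Myl1 was higher by 1.93 ± 0.60 (limma, adjusted p = 0.0185), Myh2 by 1.33 ± 0.41, Mb by 1.13 ± 0.39, Ibsp by 1.10 ± 0.27 and Ankrd1 by 0.96 ± 0.24. H19 was higher by 0.75 ± 0.20 and Tgfb3 by 0.62 ± 0.09. As each of the 35 tube alone arrays was left out in turn, Mb kept its call in 22 runs. Myl1, Myh2, Ibsp, Ankrd1, H19 and Tgfb3 kept theirs in all 35. Ibsp rostrally read 5.51, 7.80 and 6.10 on day 30, 6.15, 5.44 and 5.95 on day 60 and 5.91, 9.79 and 6.28 on day 90, all above its normal arrays. Tgfb3 rostrally stayed between 8.48 and 9.30 from day 3 to day 90, also above all 3 normal arrays. In NT-3 tube animals the same contrast called 0 of the 16 genes by limma, with 3 at an unadjusted p under 0.05 and with 0.253% of all genes higher and 0.0281% lower. The difference between the arms in this contrast was called for Ibsp (1.35 ± 0.29, adjusted p = 0.00335), Tgfb3 (0.54 ± 0.11, adjusted p = 0.0028) and H19 (0.73 ± 0.24, adjusted p = 0.0416), with 2.39% of all genes higher. Ibsp and Tgfb3 kept that call as each of the 71 arrays was left out in turn, and H19 kept it in 44 of the 71. For Myl1 the difference between the arms was 1.63 ± 0.71, not called (adjusted p = 0.15). The tube alone count was 11 without day 3 caudal replicate 3, and the NT-3 tube count was 1 without day 20 rostral replicate 3. These comparisons of the tube alone stumps were chosen after the arrays had been seen.

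The other muscle genes moved in part with the members in the lesion control gap. The muscle list has 62 entries, of which 58 were measured and 45 are not members. In the lesion control gap the 45 had a median difference above normal of 1.504, beside 0.03 over all genes. Of the 45, 32 had a mean of at least 1, beside 1958 of all 14218 genes. Summed on the linear scale, the whole skeletal muscle list stood at 0.95 to 7.51 times its normal cord level in lesion control gap arrays, 0.71 to 4 in NT-3 tube and 0.73 to 0.77 in tube alone gap arrays. Such a sum leans on list genes bright in normal cord, the brightest being Myh1 at 12.16, Pvalb at 11.08, Pygm at 9.69 and Tnnc2 at 9.14. In the lesion control gap Myh1, Pvalb and Pygm lay below normal and Tnnc2 was 1.01 above. Myh1, a fast heavy chain gene, was thus bright in normal cord and lower in the gap, unlike Myh2. Whether its probe set reads muscle Myh1 RNA in cord was not tested. The ratios therefore reflect these genes as well as the members. As 13882 of all 14218 genes did, 43 of the 45 fell short of the rule with a lowest day under 2. Fast fibre genes were among them, with Myh4 at 1.27, Actn3 at 1.92 and Atp2a1 at 1.66 above normal on average. So were slow and developmental counterparts of the members. Myh7, the slow myosin heavy chain, was 2.31 above normal on average with a lowest day of 1.11, Tnnt1, slow troponin T, 2.39 with 1.29, and Myh3, the embryonic heavy chain, 1.79 with 0.31. Tpm2, a tropomyosin, met the gap condition and exceeded the stump limit, at 0.94 rostrally and 1.44 caudally. The list genes Pvalb, Pygm and Myh1 lay below normal in the gap, Pvalb, a calcium-binding protein also found in neurons, at -2.92, Pygm, a glycogen phosphorylase, at -1.17 and Myh1 at -0.81.

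In the NT-3 tube gap against its stumps 27 of the 45 were higher and 5 lower, where 48.8% of all genes were higher and 34.1% lower, with a median of 0.29 beside 0.08 over all genes. Pvalb was lower by a difference of -3.18 ± 0.13, Cox6a2, a muscle form of a cytochrome oxidase subunit, by -1.41 ± 0.16 and Tnnc2, fast troponin C, by -1.22 ± 0.26, while Tpm2 was higher by 2.68 ± 0.08 and Des, which encodes desmin, by 1.15 ± 0.07. Tnnc2 read 8.59, 9.57 and 9.25 in normal cord and 4.47 to 11.25 in the NT-3 tube gap. Neuron markers were low in the same tissue, with Rbfox3 at -3.85 in the lesion control gap and -4.80 in the NT-3 tube gap relative to normal.

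Regulators of muscle formation were measured as a separate list of 14 genes, none of them members. The 14 had a median of 0.56 above normal in the lesion control gap, beside 0.03 over all genes. Of the 14, 5 reached 1, beside 1958 of all 14218 genes. The 3 highest were members of the MyoD family, while Musk at 0.05, Mstn at 0.07 and Cdh15 at -0.39 stayed near or below normal. Myf6, Myog and Myod1, the MyoD family transcription factors, were 2.58, 1.75 and 1.26 above normal in the lesion control gap and 0.44, 0.34 and 0.06 above normal in the NT-3 tube gap. Myod1 in the lesion control gap reached 8.22 in day 3 replicate 2 and 6.68 in day 20 replicate 2, against normal arrays of 3.85 to 3.90. Myog reached 10.77 and 10.24 in the same pair of arrays, against normal arrays of 5.96 to 6.11. Myod1 changed in the NT-3 tube gap by -1.03 ± 0.12 from day 3 to days 60 and 90 (limma, adjusted p = 2.97e-06), from arrays of 5.05, 4.41 and 4.77 on day 3.

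Ibsp belongs to a list of bone and cartilage genes. Of 25 such genes measured, Ibsp included, 19 were higher and 3 lower in the NT-3 tube gap than in its stumps, with a median of 0.58, beside 48.8% of all genes higher, 34.1% lower and an overall median of 0.08. Of the 24 others 6 lay below normal in the lesion control gap, among them Col11a2 at -1.36 and Acan at -0.80, beside 6699 of all 14218 genes. Ctsk and Acp5, enzymes of osteoclasts and macrophages, were 4.63 and 4.27 above normal there, and both also stood above normal in the rostral stump, by 3.31 and 2.73. Mmp13, a collagenase, was 3.16 above normal in the lesion control gap and 4.11 in the NT-3 tube gap. Bglap, which encodes osteocalcin, was 2.70 above normal in the lesion control gap on average but ran from 4.46 to 11.56 over the 18 arrays. It was higher in the NT-3 tube gap than in the stumps by 1.74 ± 0.27. Dmp1, of bone and dentine matrix, was higher by 1.00 ± 0.06. Of the 27 genes of TGF-beta, BMP and activin signalling, Tgfb3 included, 25 were higher and 1 lower in the NT-3 tube gap against its stumps, with a median of 1.38. Tgfb1 was higher by 1.00 ± 0.06 and Tgfb2 by 1.08 ± 0.05, beside 1.93 ± 0.06 for Tgfb3.

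Across the 18 lesion control gap arrays the muscle members varied together, and the correlations of Ibsp, H19 and Tgfb3 with them were low. The median Pearson correlation of a muscle gene with the other muscle genes lay between 0.60 for Car3 and 0.94 for Ttn. It was 0.25 for H19, 0.10 for Tgfb3 and 0.08 for Ibsp. In the 18 NT-3 tube gap arrays it lay between 0.38 for Ankrd1 and 0.91 for Myl11 among the muscle genes, and was 0.36 for H19, 0.30 for Tgfb3 and -0.08 for Ibsp. These arrays span 6 days and share their pools within an array, so the correlations are a description.

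The thresholds passed close to some genes. Just inside the gap threshold, by their lowest day, were Ankrd1 at 2.03, Myot at 2.06 and H19 at 2.08. Just outside it were Myf6 at 1.95, Fst, which encodes follistatin, at 1.90 and Lrrc32 at 1.89. Just inside the stump limit were Tgfb3 at 0.67, Car3 at 0.59 and H19 at 0.57 rostrally. Just outside it were Itga11 at 0.71, Pxdn at 0.72 and Cd248 at 0.73.

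A second probe set was present for Ankrd1, Car3 and Tnnt3. Those of Ankrd1 and Car3 averaged 3.45 and 3.09 above normal in the lesion control gap, and that of Tnnt3 averaged 0.16, with a normal level of 3.96. The lowest day was 2.94 for that of Ankrd1 and 1.85, under the gap threshold, for that of Car3. In the NT-3 tube gap the second Car3 probe set averaged 0.97 above normal, against 2.18 for the one used. With the mean of all probe sets the rule found 15 genes, without Tnnt3. Array medians lay between 7.10 and 7.25 over the series.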

How the data were processed

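The deposited table holds log2 values that the authors made with Affymetrix Expression Console and RMA, per the submitters' processing notes, with versions not given in the sources used here. RMA draws low signals together, so small differences near background are compressed. No second normalization was applied. Of 31099 probe sets, 20832 carry 1 gene symbol, 436 several and 9831 are unnamed here, and those with 1 symbol gave 14218 genes. Groups follow the sample labels. limma 3.58.1 in R 4.3.3 (lmFit, contrasts of group means, eBayes) gave p-values, adjusted by Benjamini and Hochberg over all genes with no filter on dim genes, threshold 0.05. Only NT-3 tube and tube alone arrays entered the tests. The genes, lists and tests were chosen with earlier results of these data known. Values by array or group are given for those of the 16 genes with the 10 largest lesion control differences, for the 5 called with the largest change in each test (which adds Tgfb3), for the 4 of the 16 with the largest NT-3 tube difference in each list, and for the 3 genes on either side of each threshold. Igf2, RT1-CE10, Tgfb1, Tgfb2 and the list genes that are not members were named after their values were seen. The fits were tested on simulated data, where small changes were recovered only in part in the comparisons with few arrays. Promoter windows and gene order are from RefSeq (GRCr8), searched with Python 3.11.15 and pandas.

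Alternatives tried were a robust prior with an eBayes trend, weights per array, the replicate number as a block, the mean of all probe sets, a second quantile normalization, a filter on dim genes, a 2-fold minimum, other thresholds of the rule and leaving out each array. Replicate numbers recur across groups, but the labels do not say that a number marks shared animals.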

Additional observations from a re-analysis of the deposited data

Results flagged for a closer look

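In the rostral stump against the caudal stump, Ibsp, H19 and Tgfb3 differed between the tube alone and the NT-3 tube arm. The difference between the arms was 1.35 for Ibsp, 0.73 for H19 and 0.54 for Tgfb3, with adjusted p of 0.00335, 0.0416 and 0.0028 in limma. The tube alone contrast was 1.10, 0.75 and 0.62, and the NT-3 tube contrast -0.26, 0.02 and 0.08.

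Day 1 was used in no comparison. Of its 18 stump arrays, 2 had a muscle median of 1 or more above normal cord, whose own arrays reached 0.06: tube alone rostral replicate 1 at 3.04 and tube alone caudal replicate 3 at 3.51. The other day 1 arrays lay between -0.20 and 0.48.

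Among the 5 arrays of the purchased reference RNA, 1 stood apart for Myl11 at 9.06, the others lying between 9.79 and 10.06. One group was looked at for each of the 16 genes, and chance marks about 5% of such groups.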

How the results depend on the processing

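The number of genes found by the rule moved with its thresholds: 44 at a gap threshold of 1.5, 8 at 2.5 and 26 at a stump limit of 1. It was 8 without replicate 2 and ranged from 7 to 19 as single arrays or replicates were left out. The 16 genes higher in the NT-3 tube gap became 10 at a 2-fold minimum and ranged from 15 to 16 without single arrays. The tube alone count of day 3, 3, became 1 at a 2-fold minimum and ranged from 2 to 10 without single arrays or replicates. The 5 genes changed between days 60 to 90 and day 3 became 3 with a trend and robust prior and 3 with array weights, and ranged from 2 to 11 without single arrays. The 8 changed between days 10 to 30 and day 3 became 3 with the trend and 4 with array weights, and ranged from 1 to 11. The 5 of NT-3 tube against tube alone on day 3 became 2 with the trend and 8 with all lesion arrays in 1 fit, and ranged from 3 to 12. The 0 between NT-3 tube stumps became 1 with array weights, 7 in the tube alone arm, and ranged from 0 to 1. The 12 lower in NT-3 tube stumps became 2 at a 2-fold minimum and ranged from 11 to 16. In the caudal stump alone their count was 0, as it was over all genes. The 7 genes of the tube alone stumps ranged from 6 to 11, 11 without day 3 caudal replicate 3, and the 3 that differed between arms from 2 to 4. The settings for single stumps, left-out days and the tube alone arm were chosen after seeing the data. The causes were not tested. No gene called in the main fits changed direction under any alternative run. Genes not called there could change sign. In the tube alone gap against its stumps on day 3, 5 of the 16 had a positive difference, while 10 were called higher without replicate 3.

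With a replicate block, 3 genes were called for days 60 to 90 and 3 for days 10 to 30 against day 3, and 16 in the NT-3 tube gap against its stumps. The numbers were not taken to pair the arrays: 28 of 52 same-numbered pairs of NT-3 tube segments correlated above 0.1, the lowest at -0.40. Their median correlation was 0.13, against -0.05 for other numbers, and 0.21 against -0.09 between the NT-3 tube stumps.

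The number of arrays limits the precision, and the tube alone gap has 1 day only.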

Other observations

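A lower gap threshold of 1.5 log2 admitted 28 further genes, given here as a description of the same lesion control arrays. Of these, 4 are in the muscle list: Ampd1, a muscle adenylate deaminase, Des, Myoz2 and Trdn, a protein of the calcium release unit. The rest included the growth factor gene Vegfc, the Notch ligand gene Jag1, the basement membrane gene Hspg2, and Fst. Fst stood above the stumps in both tube arms, by 2.95 ± 0.10 in the NT-3 tube gap over days 3 to 90 and by 2.56 ± 0.11 in the tube alone gap on day 3 (limma, adjusted p = 4.98e-28 and 3.42e-08). With the NT-3 tube it then fell by 1.64 ± 0.24 from day 3 to days 60 and 90. Widening the stump limit to 1 admitted 10 genes, among them the transcription factor genes Runx1, Ets1 and Klf10 and the muscle gene Csrp3.

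The purchased reference RNA, pooled from cell lines, gave Ankrd1 at 10.04 to 10.51 and Klhl41 at 7.25 to 7.81, against normal cord at 5.09 to 5.25 and 4.33 to 4.61. Myh2 and Mb in the same arrays, at 4.10 to 4.51 and 4.98 to 5.29, overlapped normal cord.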
